A study of Mus musculus with 16 samples.

Results

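The genes described here are 9 transcription factor genes of retinal progenitor cells: Pax6, Rax, Six3, Six6, Lhx2, Sox2, Sox9, Meis1 and Meis2. They were taken as a fixed list of names, 9 of the 21887 protein-coding genes of the RefSeq table, chosen with earlier results of these data known. Every CUT&RUN peak overlapping a gene body or the 50 kb on either side was assigned to the gene. This gave 24 of the 9731 deposited peaks, or 16 of 6155 regions once overlapping peaks were merged. In CUT&RUN an antibody held on its target in permeabilised cells guides a nuclease, and the DNA released around the protein is sequenced. The cells came from pooled retinas of CD-1 mice, an outbred strain, on embryonic day 16. Antibodies were against Foxn3 (4 libraries from 2 experiments), Foxn4 (2 libraries) and Rfx3 (2 libraries), and 8 further libraries carried rabbit or mouse IgG as controls. Nuclease digestion took 1 h for Foxn3, Rfx3 and the rabbit IgG libraries, and about 12 h for Foxn4 and its mouse IgG, so a difference of Foxn4 from the other lists cannot be told apart from a difference in digestion or in antibody host. Each antibody has 1 peak list, of 2794 peaks for Foxn3, 2956 for Foxn4 and 3981 for Rfx3. How the libraries of an antibody entered its list is not stated, so no value has a spread between replicates and no test between conditions was made. The IgG libraries were not analysed here, and depth per library is unknown from peak lists.

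Retinal progenitors are the dividing cells from which all neurons of the retina and its Müller glia arise. Pax6, Rax, Six3, Six6 and Lhx2 encode homeodomain proteins of the eye field network, which sets up the optic vesicle and keeps progenitors competent. Sox2 and Sox9 encode HMG-box proteins that keep progenitors undifferentiated and later mark glia, and Meis1 and Meis2 encode TALE homeodomain proteins, known as regulators of Pax6 in the developing eye. Foxn3 and Foxn4 are forkhead factors, and Foxn4 is known for its need in amacrine and horizontal cell formation. Rfx3 is a winged-helix factor that recognises the X-box, a pair of inverted half-sites, and is known for its control of cilium genes.

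The 250 bases before the transcription start are shown for 3 members, Six3 and Six6 because peaks covered them, and Pax6 because it had peaks nearby but none there. They are RefSeq sequences of build GRCm38.p6 (the assembly of mm10), all on the plus strand, printed 5′ to 3′, and the last base lies next to the start. The patterns searched, on both strands, numbered 4: GTTGCC, an RFX half-site, the X-box as GTTGCC followed after 0 to 3 bases by GGNAAC, the forkhead site GTAAACA, and GACGC, the alternate site of Foxn factors. Capitals mark the matches: the X-box in Six3, GACGC or its complement in Six6, and a lone half-site in Pax6. The first sequence is chr17:85620584-85620833, the next chr12:72939632-72939881 and the last chr2:105668646-105668895.
Six3: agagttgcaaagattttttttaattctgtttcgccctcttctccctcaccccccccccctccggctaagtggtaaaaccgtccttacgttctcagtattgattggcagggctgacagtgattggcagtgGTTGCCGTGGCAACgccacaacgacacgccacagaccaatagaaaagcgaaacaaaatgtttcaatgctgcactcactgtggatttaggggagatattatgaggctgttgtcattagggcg
Six6: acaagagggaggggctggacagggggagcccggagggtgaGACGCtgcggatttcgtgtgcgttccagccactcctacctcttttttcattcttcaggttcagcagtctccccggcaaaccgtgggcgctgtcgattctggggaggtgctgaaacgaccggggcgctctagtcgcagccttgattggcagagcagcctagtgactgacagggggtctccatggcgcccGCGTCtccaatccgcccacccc
Pax6: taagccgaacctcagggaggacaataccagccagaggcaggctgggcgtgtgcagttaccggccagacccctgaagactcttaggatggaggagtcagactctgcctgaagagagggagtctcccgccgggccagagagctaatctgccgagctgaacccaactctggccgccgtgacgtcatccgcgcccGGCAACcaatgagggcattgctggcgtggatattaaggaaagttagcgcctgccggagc

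The Six3 sequence held a complete X-box, 121 to 108 bases before the start at chr17:85620713-85620726. Its half-sites also count as matches to GTTGCC, 1 on each strand. Both the Foxn3 and the Rfx3 peak enclosed it, and its centre lay 26 bp from the Foxn3 midpoint and 182 bp from the Rfx3 midpoint. Among 21263 promoters of protein-coding genes, 87 (0.409%) held this pattern in the same 250 bases. Of those 87 promoters, 42 were overlapped by a Foxn3 peak (48.3%), 58 by an Rfx3 peak (66.7%) and 3 by a Foxn4 peak (3.45%). The corresponding shares of all promoters were 8.23% for Foxn3, 10.1% for Rfx3 and 4.4% for Foxn4.

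The Six6 sequence had no X-box and no RFX half-site. It held GACGC once on each strand, 210 to 206 and 22 to 18 bases before the start, and all 3 peaks enclosed both copies. The upstream copy began on the first base of the Foxn3 peak. It lay 216 bp from the Foxn3, 153 bp from the Foxn4 and 3 bp from the Rfx3 midpoint. For the other copy these distances were 28, 34 and 184 bp. GACGC is common: 27.7% of promoters held it, and 49.7% of those with a Foxn3 peak, 49% with a Foxn4 peak and 47.7% with an Rfx3 peak. Promoters with peaks were also richer in G and C, with a median of 60.4% for Foxn3, 61.6% for Foxn4 and 61.2% for Rfx3 against 55.6% over all, and its part in the motif shares was not tested. The Six6 sequence had 62.8%. Matches also occurred without a peak. Pax6 had its half-site 59 to 54 bases before the first start, and the promoters of Lhx2 (197 to 193 bases before its first start) and Meis1 (38 to 34) each had 1 GACGC, and no list had a peak over any of these promoters. The half-site occurred in 10.5% of promoters, and in 22% of those with a Foxn3 peak, 13.3% with a Foxn4 peak and 22.7% with an Rfx3 peak. No member promoter held GTAAACA, which occurred in 2.62% of promoters, in 1.94% of those with a Foxn3 peak, in 1.39% with a Foxn4 peak and in 1.76% with an Rfx3 peak. The promoter table covered 7 of the 9 genes with 9 promoters, and had no entry for Rax or Sox9.

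Among the members, Foxn4 peaks were the most frequent and Foxn3 peaks the least. The members were chosen with earlier results of these data known, so the shares below are a description and were not tested. Foxn4 had peaks at 5 of the 9 genes (Pax6, Six3, Six6, Sox2 and Meis1), where 19.9% of all protein-coding genes had one by the same rule. The peak of Six3 lies 19.6 kb past its body and nearer to Six2. The count was 4 with a window of 10 kb, and 4 when only peaks nearest to the member counted. Rfx3 had peaks at 4 (Six3, Six6, Lhx2 and Meis1), against 33% of all genes, and Foxn3 at 3 (Six3, Six6 and Meis1), against 27.4%, so the Foxn3 and Rfx3 counts lie near their backgrounds. Any peak was found at 6 of 9, against 40.4%. Peaks of every list were found at 3 of 9, against 12.5%, with Six3 included through that distant Foxn4 peak. Because long genes have wide windows, the counts were also set per length. The 9 windows together span 1.34 Mb and held 13 Foxn4 peaks (9.73 per Mb), 8 Rfx3 peaks (5.99 per Mb) and 3 Foxn3 peaks (2.25 per Mb). Over the windows of all protein-coding genes the densities were 1.85, 3.72 and 2.75 per Mb. Windows of neighbouring genes overlap, so a peak and its bases can count more than once there, which gives gene-dense stretches more weight. Without Meis1, the member with most peaks, the member densities were 8.21 per Mb for Foxn4, 4.56 for Rfx3 and 1.82 for Foxn3.

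**Figure D1:**
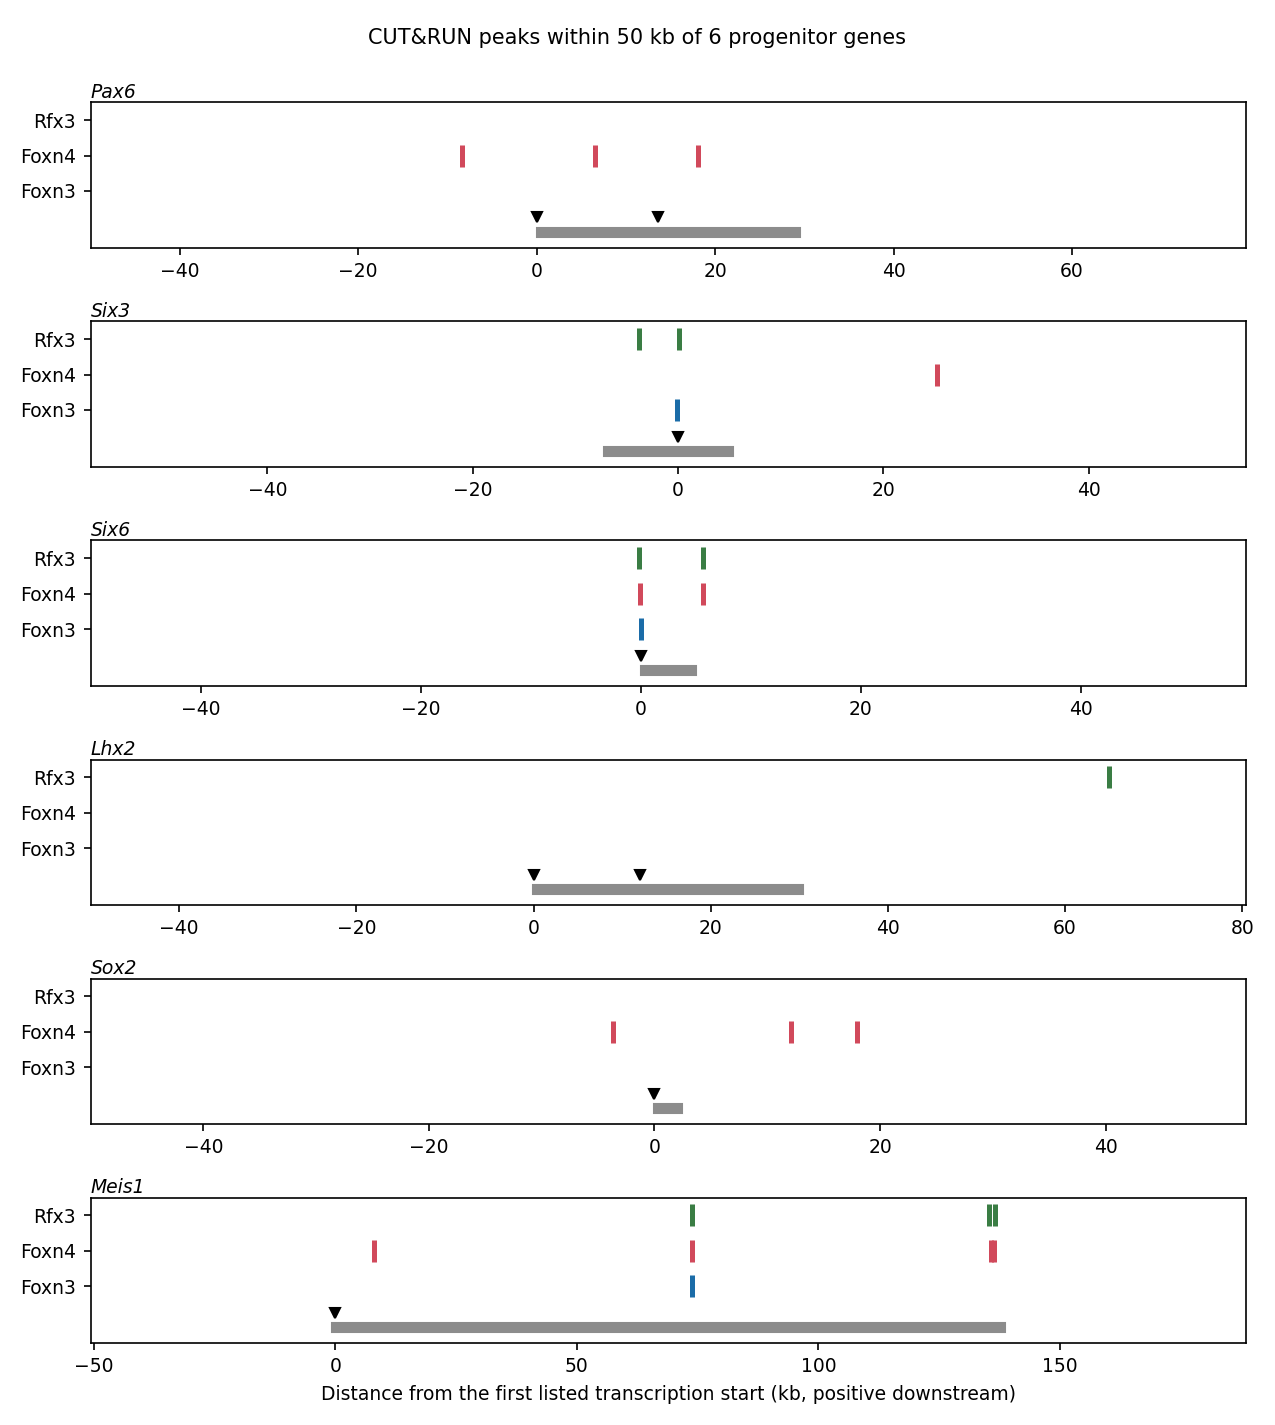
Positions of peak midpoints (coloured ticks, 1 row per peak list) within 50 kb of the 6 genes with peaks, as distance in kb from the first listed transcription start, with the gene body as a grey bar and listed starts as triangles. Pax6 and Sox2 have 3 Foxn4 ticks each and no other, while Six6 and Meis1 each have a place where all 3 rows line up.

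Pax6 and Sox2 had peaks in the Foxn4 list alone, a pattern found at 4.4% of all genes. Pax6 (chromosome 2, 105668896 to 105698410) had 3. One lay before the gene at 105660221 to 105660813, 8.1 kb outside the body and inside the long non-coding RNA genes Paupar and Pax6os1. The others lay inside Pax6, at 105675222 to 105675730, 6.6 kb after the first listed start, and at 105686778 to 105687112, 4.5 kb after the second listed start. Their scores, the authors' own value for each peak, were 7.11, 9.78 and 6.22, higher than 44.1%, 75.5% and 29.3% of the Foxn4 list. By score per base of width, these ranks were 13.8%, 45.2% and 41.8%. The Foxn4 scores take only 36 distinct values, so ranks are coarse: 14.9% of the list shares the score 6.22. The nearest Foxn3 peak lay 264.9 kb and the nearest Rfx3 peak 304.8 kb from the Pax6 body.

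Sox2 (chromosome 3, 34649995 to 34652461), a short gene inside the long non-coding RNA gene Sox2ot, likewise had 3 Foxn4 peaks, all outside its body and within Sox2ot. The nearest, at 34646178 to 34646513, lay 3.5 kb before the gene and scored above 67.6% of the list. The others, at 34661907 to 34662306 and 34667802 to 34668141, lay 9.4 and 15.3 kb past the gene and each scored above only 5.2% of the list. The nearest Foxn3 and Rfx3 peaks were 526.4 and 526.2 kb away. Together with Meis1, these genes have 3 or more Foxn4 peaks in their windows, as 1.32% of all genes do. That threshold was set after the counts were seen.

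Six3 and Six6, the closely related sine oculis homeobox genes of the eye field, had peaks over their transcription starts, and no other member with a promoter entry did. Over all promoters, 8.23% were overlapped by a Foxn3 peak, 10.1% by an Rfx3 peak and 4.4% by a Foxn4 peak. At Six6 (chromosome 12, 72939882 to 72944899) all 3 lists had a peak that overlapped the promoter (250 bases before to 50 after the start), as holds for 2.88% of promoters, and each of these peaks also spanned the start itself. The peak of Rfx3 ran from 72939392 to 72939963, that of Foxn4 from 72939653 to 72940002 and that of Foxn3 from 72939672 to 72940108. Their scores of 179, 10.67 and 80.36 exceeded 77.0%, 81.1% and 82.0% of their own lists, all in the upper part. The Rfx3 peak reached farther upstream, with its midpoint 204 bp before the start, against 54 bp before it for Foxn4 and 8 bp after it for Foxn3. Of the 250 bases printed above, the Rfx3 peak covered 250, the Foxn4 peak 229 and the Foxn3 peak 210.

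A further Six6 region lay just past the other end of the gene, with an Rfx3 peak at 72945180 to 72945829 and a Foxn4 peak at 72945253 to 72945769, whose midpoints were 6 bp apart. The ranks differed: the Foxn4 peak stood above 67.6% of its list and the Rfx3 peak above 1.9%. By score per base of width, they stood above 36.1% and 2.5%. The Foxn3 list had no peak there.

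At Six3 (chromosome 17, 85613608 to 85626191) the listed transcription start, 85620834, lies inside the annotated body. The Foxn3 peak at 85620594 to 85620898 and the Rfx3 peak at 85620595 to 85621209 began 1 base apart and overlapped by 304 bp. The Rfx3 score of 299 exceeded 87.0% of its list, the highest rank of any Rfx3 peak near the 9 genes, whereas the Foxn3 score of 27.1 exceeded 43.8%. Foxn4 had no peak over this start. Its peak at 85645824 to 85646256, 19.6 kb past the Six3 body, is 16480 bp from Six2 and so nearer to that gene, and scored above 15.4% of the list. A weak Rfx3 peak at 85616635 to 85617353, above 4.5% of its list, lay 3.8 kb before the start, where the body of Six3 overlaps the long non-coding RNA gene Six3os1.

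**Figure D2:**
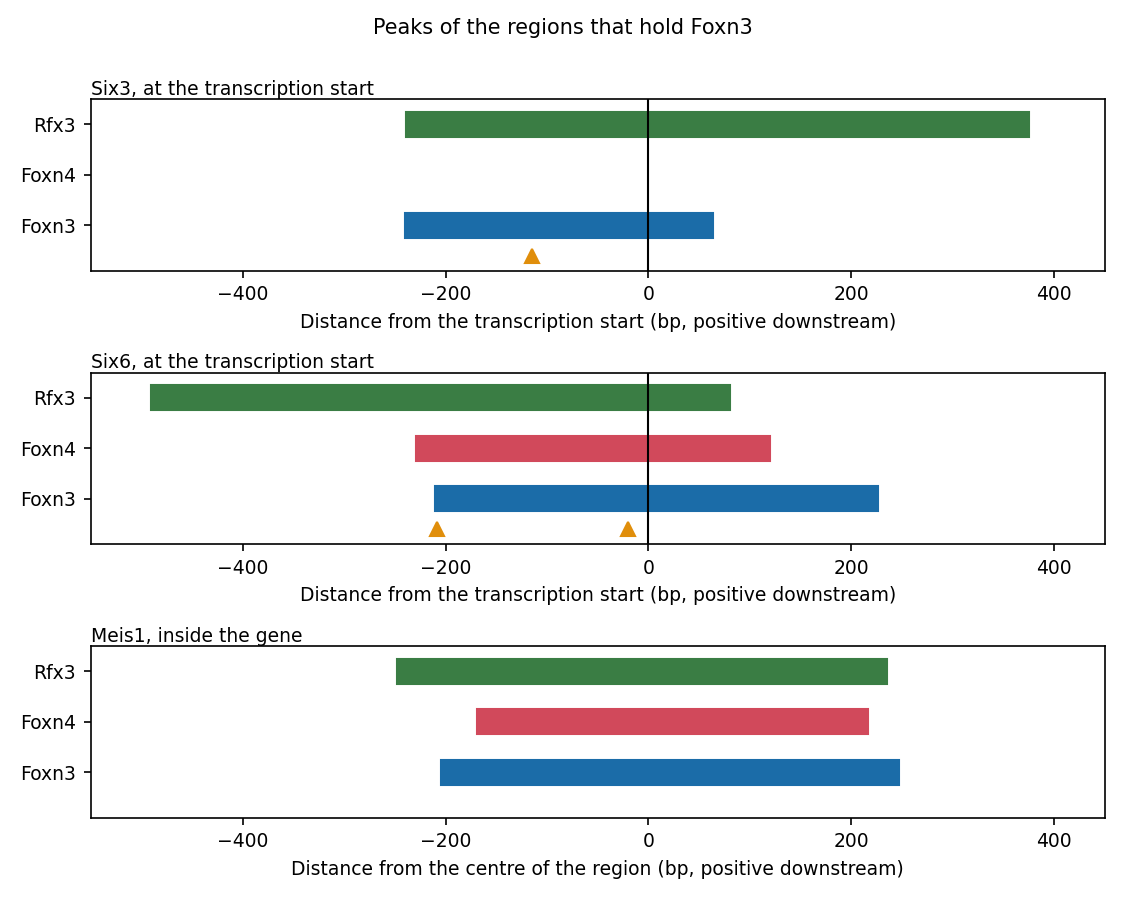
Extent of the peaks (bars, 1 row per list) in the 3 regions near the members that hold a Foxn3 peak, in bp from the transcription start (vertical line) for Six3 and Six6 and from the centre of the region for Meis1; orange triangles mark the X-box in Six3 and the GACGC matches in Six6, with no sequence available for Meis1. The Six3 triangle lies under both bars, and the Meis1 bars share nearly the same centre.

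Meis1 (chromosome 11, 18880428 to 19019651, minus strand) had 8 peaks, the most of any member, and all lay inside the gene. As many or more were found at 2.28% of all genes. Its body is 139.2 kb long, however, and the count per gene grows with length. The region of all 3 lists lay 73.9 kb after the start, with the Foxn3 peak at 18944820 to 18945272, the Rfx3 peak at 18944832 to 18945315 and the Foxn4 peak at 18944851 to 18945236. The Foxn4 score of 26.67 exceeded 99.5% of its list, the highest rank of any peak near the 9 genes. The Foxn3 score of 50.46 exceeded 70.1% and the Rfx3 score of 135 exceeded 69.5% of their lists. The peaks coincided closely, with midpoints 2 bp apart for Foxn3 and Foxn4, 27 bp for Foxn3 and Rfx3 and 30 bp for Foxn4 and Rfx3. Exon positions were not examined, so exonic or intronic location is not given.

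Near the 3′ end of Meis1 lay a pair of neighbouring regions with Foxn4 and Rfx3 peaks and no Foxn3 peak. In one, the Rfx3 peak at 18882281 to 18882701 exceeded 11.2% and the Foxn4 peak at 18882285 to 18882778 exceeded 44.1% of its list. In the other, the Rfx3 peak at 18883042 to 18884342 exceeded 72.7% and the Foxn4 peak at 18883123 to 18883517 exceeded 86.0%. That Rfx3 peak was 1301 bp wide, wider than 99.3% of its list. Ranked by score per base of width, it exceeded 34.5% of its list and the Foxn4 peak 76.8%. A last Foxn4 peak, at 19010684 to 19011277, lay 8.0 kb after the start, above 15.4% of its list and within the non-coding gene Gm16141. Meis1 had no peak over its listed promoter.

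Lhx2 (chromosome 2, 38339271 to 38369737), a LIM homeobox gene, had 1 peak, of Rfx3, at 38403928 to 38404508. It lay 34.2 kb past the body with a score of 24, above 5.6% of its list. Peaks of Rfx3 alone were found at 6.94% of all genes.

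Rax, Sox9 and Meis2 had no peak in any list within 50 kb. For Rax (chromosome 18, 65934639 to 65939089), the retinal homeobox gene, the nearest peaks of the 3 lists fell together 76.2 to 76.4 kb away, in a region nearer to Lman1. The nearest peak to Sox9 (chromosome 11, 112782210 to 112787757) was a Foxn4 peak 73.6 kb away. Meis2 (chromosome 2, 115861264 to 116067537) contrasted with its paralogue Meis1: its body is longer, at 206.3 kb, and the nearest peak of any list, of Foxn4, lay 1311.2 kb away. Near the 50 kb limit, the farthest peak counted was that of Lhx2 at 34.2 kb, and the nearest one left out was an Rfx3 peak 62.0 kb past Six3, which overlaps Six2. The related pairs differed in number of peaks, with 8 at Meis1 and 0 at Meis2, and 3 at Sox2 and 0 at Sox9, whereas Six3 had 4 and Six6 had 5.

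**Figure D3:**
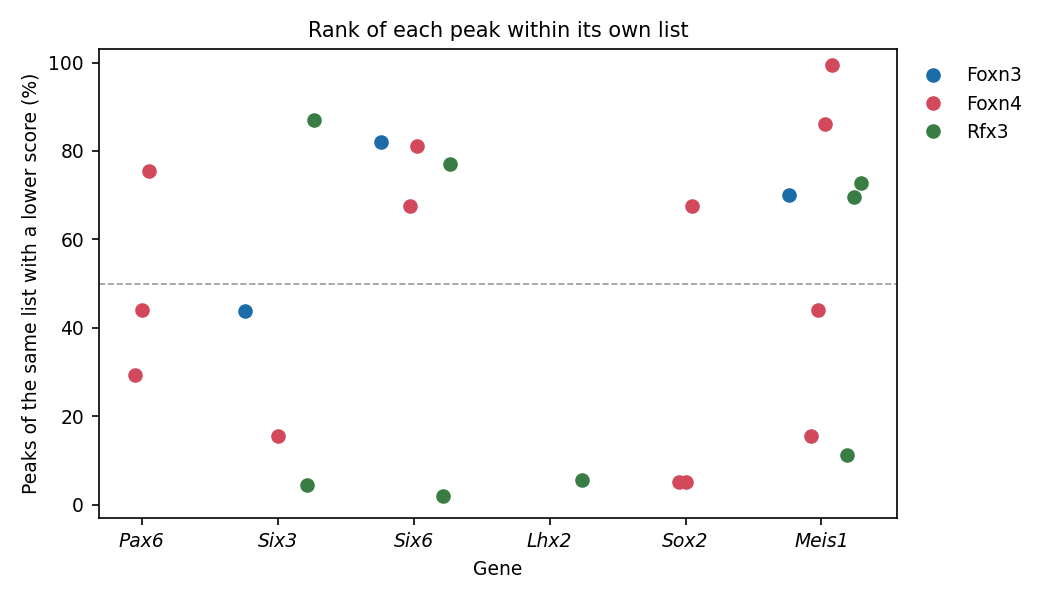
Rank of each of the 24 peaks within its own list, by gene (horizontal axis) and list (colour). The rank (vertical axis) is the percentage of peaks of that list with a lower score. The dashed line marks the middle of the rank scale. For Foxn4 this is not the median score of the list, because tied scores do not count as lower. Foxn4 peaks with that median score, 7.11, lie below the line, at 44.1%. Foxn4 at Meis1 is the highest point at 99.5%, and the single Lhx2 point and the lowest Six3 and Six6 points are Rfx3 peaks, at 5.6%, 4.5% and 1.9%.

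The ranks spread widely. Foxn4 peaks near the members exceeded a median of 44.1% of their list (lowest 5.2%, highest 99.5%, n = 13), and 6 of 13 were in its upper part, above at least 50% of the list. The rank of 44.1% belongs to the score 7.11, which is also the median score of the whole Foxn4 list. It falls below 50% because tied scores do not count as lower. Of the 13 Foxn4 peaks, 8 scored at or above that median score. For Rfx3 the median was 40.3% (1.9% to 87.0%, n = 8), with 4 of 8 in the upper part. The 3 Foxn3 peaks exceeded 43.8%, 70.1% and 82.0% of their list. The regions of all 3 lists, at Six6 and Meis1, held peaks above at least 69.5% of their list in every case, while the other 18 peaks ranged from 1.9% to 87.0%. By score per base of width, the lowest rank in these regions was 60.2%. Outside the windows, 2 regions of all 3 lists lay near Rax. Ranks for Foxn4, Rfx3 and Foxn3 were 81.1%, 75.7% and 58.7% in the nearer and 99.1%, 9.7% and 4.1% in the farther. Regions of all 3 lists were not ranked over the whole lists.

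Sharing was next set beside that of the whole lists. Of the 16 merged regions, 8 held Foxn4 alone (50% against 26.9% of all regions), 3 held Foxn4 and Rfx3 without Foxn3 (18.8% against 2.89%), 2 held every list (12.5% against 14.2%) and 2 held Rfx3 alone (12.5% against 25.3%). Only 1 region, at Six3, held Foxn3 and Rfx3 without Foxn4 (6.25% against 22.1%). No region held Foxn3 alone or Foxn3 with Foxn4 alone, classes that make up 4.74% and 3.83% of all regions. With 16 regions at 6 genes, these shares are a description and were not tested. The 3 regions of Foxn4 and Rfx3 without Foxn3 are 1 at Six6 and the neighbouring pair in Meis1. Joining peaks across gaps of up to 500 bp left 5 regions in 2 or 3 lists instead of 6. The Rfx3 peak exceeded only 1.9% of its list at Six6, and 11.2% and 72.7% in the Meis1 pair. All 3 Foxn3 peaks lay in a region with Rfx3, as did 81.1% of the Foxn3 list. Of the 8 Rfx3 peaks, 5 lay in a region with Foxn4, against 26.6% of the Rfx3 list, and 3 in a region with Foxn3, against 56.4%. Of the 13 Foxn4 peaks, 5 were shared with Rfx3, against 36% of the Foxn4 list, and 2 with Foxn3, against 38%.

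**Figure D4:**
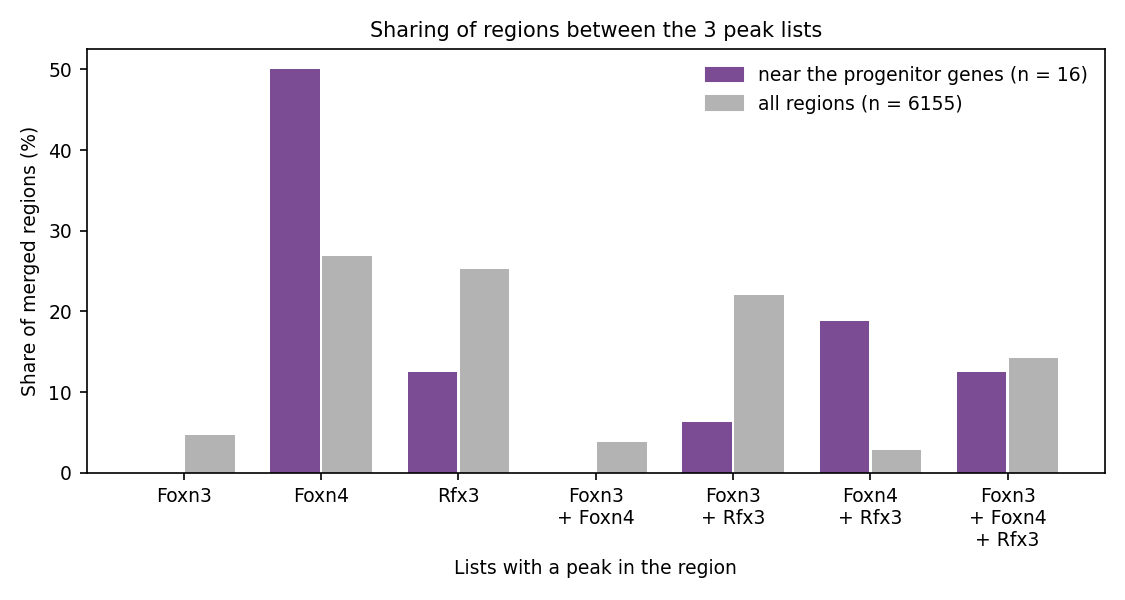
Share of merged regions (vertical axis, percent) by the lists with a peak in them (horizontal axis), for the 16 regions near the 9 genes (purple) and all 6155 regions (grey). The purple bar is taller than the grey one for Foxn4 alone and for Foxn4 with Rfx3. It is shorter or absent in the other classes, among them Rfx3 alone and Foxn3 with Rfx3.

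A further 30 genes active in retinal progenitors or the early eye were examined in the same way, among them the Notch targets Hes1 and Hes5 and the Id genes, which encode inhibitors of bHLH factors. Foxn4 had a peak in the window of 16 of 30, Rfx3 of 10 and Foxn3 of 8, to be read against the 19.9%, 33% and 27.4% of all genes given above. The Foxn4 list alone had peaks at 7 of 30, against 4.4% of all genes, namely Otx2, Nr2e1, Sox8, Tbx2, Vax1, Prox1 and Hmx1. No peak was found at 12 of 30, against 13041 of 21887 protein-coding genes. The pattern of Meis1, Six3 and Six6, with peaks of every list, was shared by 6 of the 30, against 12.5% of all genes. These were Notch1, Fgf15, Ccnd1, Nfix, Id1 and Id3. Likeness here means the same presence or absence over 3 lists, and the windows of Fgf15 and Ccnd1 overlap. Within 1 kb of a gene end, Foxn4 had a peak at 6 of the 30 (Hes1, Hes5, Fgf15, Id1, Id3 and Tbx2), against 4.84% of all protein-coding genes. Rfx3 had one at 2 (Hes5 and Id1), against 10.6%, and Foxn3 at 1 (Hes1), against 8.82%. None had all 3 there, as Six6 does and 3.06% of all genes do. At Hes5 the Foxn4 peak (chromosome 4, 154960484 to 154960892) exceeded 67.6% of its list and the Rfx3 peak, at 154960462 to 154961049, exceeded 20.1%. At Hes1 (chromosome 16) the Foxn3 peak at 30065065 to 30065515 exceeded 8.4% and the Foxn4 peak at 30065093 to 30065368 exceeded 5.2%, both near the bottom of their lists. The Foxn4 gene-end peaks of Fgf15, Id3 and Tbx2 each exceeded 44.1% of their list, the rank of its median score. At Id1 the Foxn4 peak exceeded 15.4% and the Rfx3 peak 14.1% of their lists.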

How the data were processed

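The authors deposited 1 peak list per antibody, with positions on mm10, per the file headers, and a score per peak. The score is the authors' deposited value, its scaling is not stated, and it was used only to rank peaks within a list. The submitters' processing notes name cutadapt, Bowtie2, UMI-tools, bedtools and SEACR without roles; the peak threshold and use of IgG are not given in the sources used here. Positions are counted from 1. Peaks were assigned to RefSeq GRCm38.p6 gene bodies extended by 50 kb (any overlap), and merged where they overlapped by at least 1 bp across lists. The rank is the percentage of the list with a lower score. The same counts over 21887 protein-coding genes served as background. Gene ends were examined within 1 kb of a peak midpoint. Counting and merging were tested on simulated intervals (Python 3.11.15, pandas 2.3.3). All 9 members and every peak of theirs are named, except where a gene had over 10, which none had; 2 of the 32 other genes listed are not reported here; of the remaining 30, those with a gene-end peak or with the same pattern over the lists as Meis1 are named by rule, and the others were chosen after their values were seen. The members and lists were chosen with earlier results of these data known. Motifs were searched in RefSeq promoters only, since no genome sequence was used here.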

Additional observations from a re-analysis of the deposited data

How the results depend on the processing

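Of 69 counts recomputed for 12 results, 58 stayed within 1.5 times the reported count. A window of 10 kb, midpoints in place of overlaps, peaks at least 150 bp wide, peaks nearest to the member, an overlap of at least 0.5 of the shorter peak and a gap of up to 500 bp moved no count further. The width and midpoint settings could not move a count here. Every peak near the members was at least 305 bp wide, and none lay close to the 50 kb limit. With 100 kb, Foxn3 peaks numbered 6 instead of 3 and regions of every list 4 instead of 2. With peaks at or above their list's median score, 8 Foxn4 and 4 Rfx3 peaks and 9 regions remained, 3 of these in 2 or 3 lists. Foxn4 peaks that score exactly the median, 7.11, remain here but were not counted in the upper part of the list above. Within 1 kb of a gene end lay 1 Foxn3, 2 Foxn4 and 2 Rfx3 peaks, all at Six6; Foxn4 and Rfx3 had 1 each within 500 bp and 5 each within 5 kb. Ranking by score per base of width gave median ranks of 60.2% for Foxn3, 36.1% for Foxn4 and 26.0% for Rfx3. Without Meis1, chosen after seeing the data, 5 Rfx3 peaks remained. No paired analysis was possible because the lists do not separate libraries, and for the same reason no library could be left out. Depth could not be weighed from peak lists.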
